A study of Oryza sativa with 8 samples.

Results

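The sodium antiporters NHX1, NHX2, NHX3, NHX4, NHX5 and SOS1 and the regulators of SOS1, CIPK24 (SOS2) and CBL4 (SOS3), were followed through salt treatment in rice seedlings. They are 8 of the 52795 loci on the array, taken by locus identifier, and all 8 were kept among the 45335 loci above background. Whole seedlings of Nipponbare, a japonica rice, and Pokkali, an indica rice, were 14 days old and had been raised in a greenhouse. RNA was taken 8 h after treatment with 250 mM NaCl and at 0 h, and hybridised in one colour. The 4 groups, each with 2 arrays from biological replicates called I and II, were Pokkali at 8 h, Pokkali at 0 h, Nipponbare at 8 h and Nipponbare at 0 h. No seedlings kept for 8 h without salt were analysed here, so salt and hours of day cannot be told apart. Wherever a salt change is given, it is the 8 h level relative to the 0 h level of the same line.

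Sodium that enters a plant cell can be moved out of the cytosol by antiporters that exchange it for protons. NHX antiporters work on internal membranes, the vacuolar ones storing sodium or potassium in the vacuole, whereas SOS1 sits in the plasma membrane and exports sodium from the cell. In the Salt Overly Sensitive pathway the calcium sensor SOS3 (CBL4) binds the protein kinase SOS2 (CIPK24), and that pair phosphorylates and activates SOS1. Both kinds of antiporter run on proton gradients, which proton ATPases and proton pyrophosphatases build.

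Signal is given relative to the 75th percentile of the array, so that a value of 1 equals that percentile, which lay between 674 and 948 intensity units. Between 81.0% and 85.5% of the spots other than controls were well above background. The 8 loci were read by 10 probes, with 2 probes, named for transcript models 1 and 2, for NHX5 and for SOS1. All 10 probes were well above background on all 8 arrays, with 0 saturated spots. Different probes bind with different strength, so a gene's level is compared between samples and not with the level of another gene. The p-values are from limma, adjusted over all loci by the Benjamini-Hochberg method, with 0.05 as the threshold. A call in one comparison is set against the percentage of all loci called there.

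**Figure D1:**
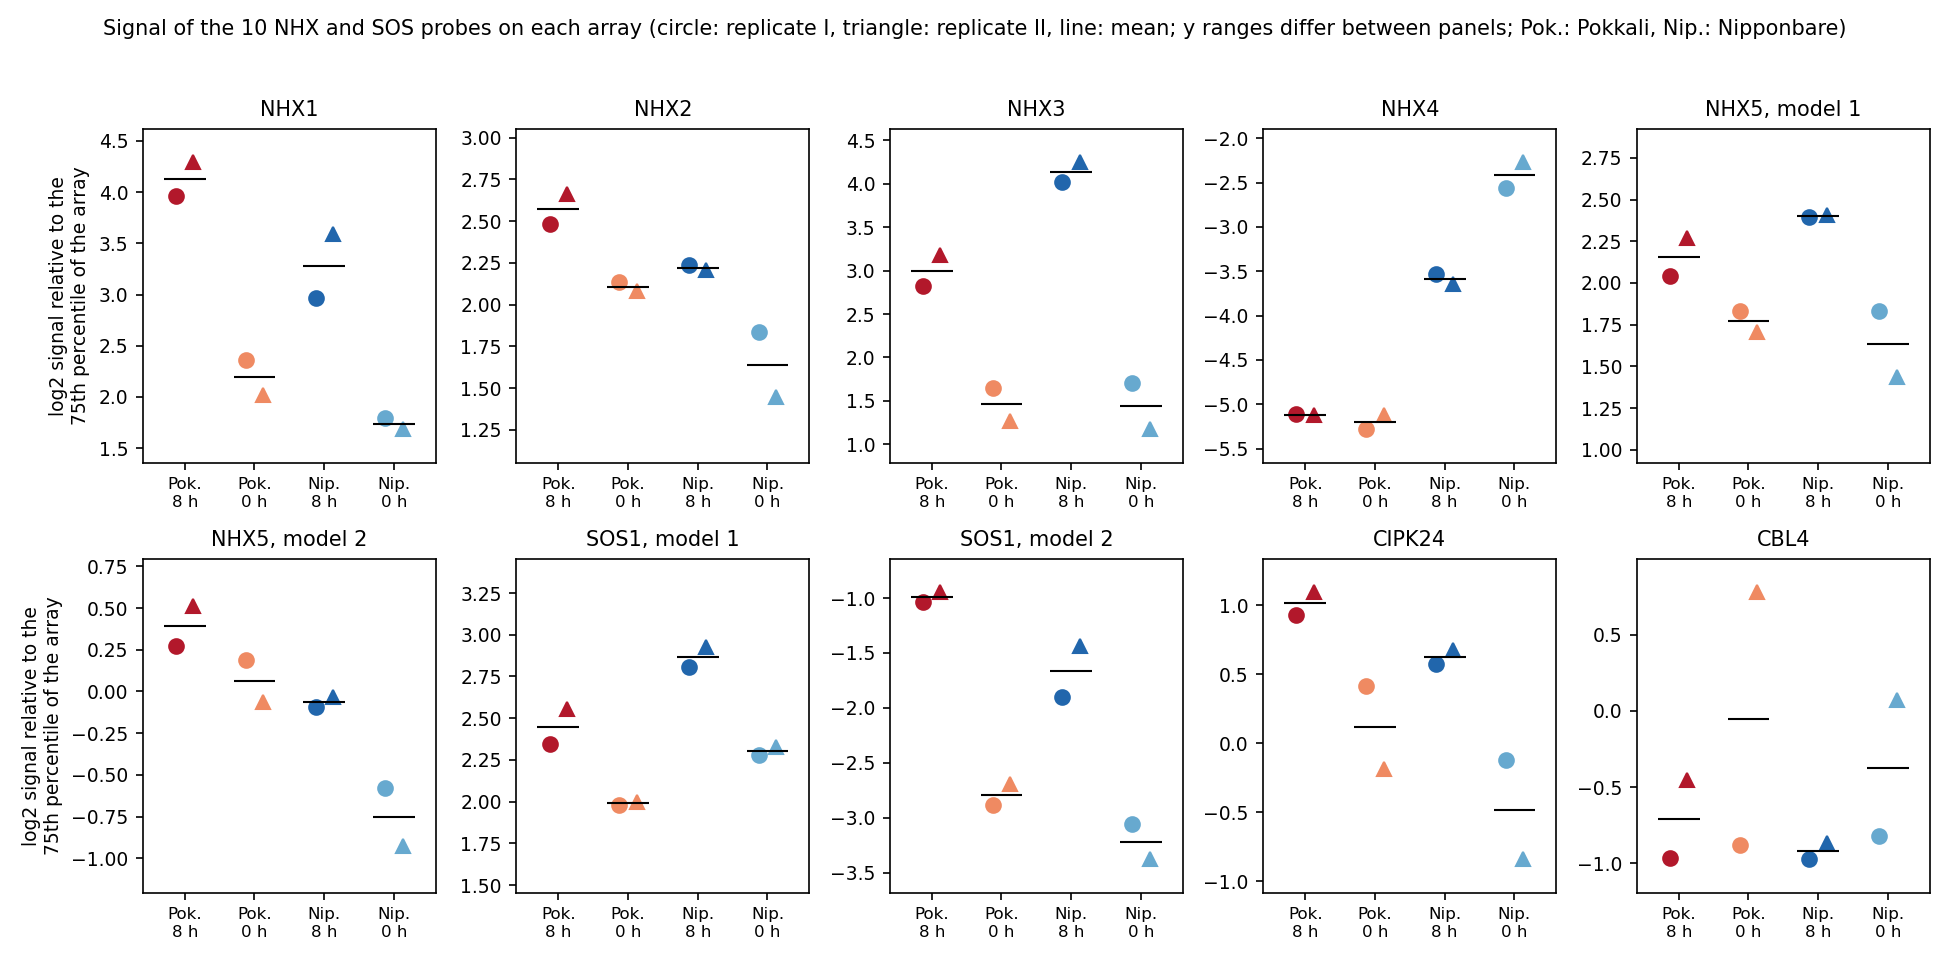
Log2 signal relative to the array's 75th percentile (vertical axis) of the 10 probes in Pokkali at 8 h, Pokkali at 0 h, Nipponbare at 8 h and Nipponbare at 0 h, with each array as a point and the group mean as a line. All probes but those of NHX4 and CBL4 lay higher on both 8 h arrays than on both 0 h arrays of each line. Over all loci these arrays did not overlap, in either direction, for 67.2% in Pokkali and 68.9% in Nipponbare. NHX4 was far lower in Pokkali, and the 0 h replicates of CBL4 lay apart.

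After 8 h of salt, 3 of the 8 genes rose in Pokkali and 0 fell in limma, where 15.1% of all loci rose and 12% fell (27.1% in all). NHX1, NHX3 and SOS1 were the 3. At an unadjusted p under 0.05, 5 of the 8 were higher in Pokkali and 0 were lower, where 40.6% of all loci passed in either direction. In Nipponbare 5 of the 8 rose (14% of all loci) and 1 fell (12.3%), where 26.3% of loci were called in all. NHX1, NHX3, NHX5, SOS1 and CIPK24 rose there and NHX4 fell. The median log2 change of the 8 was 0.68 in Pokkali and 0.89 in Nipponbare, whereas the median over all loci was 0.07 and 0.05 in these lines. Averaged over both lines, 6 of the 8 rose (23.7% of all loci) and 1, NHX4, fell (19%), with 42.8% of loci called in all. The NHX4 average (log2 -0.54) joined -1.17 in Nipponbare and 0.08 in Pokkali, where its arrays overlapped, so it was not a fall in each line. The 8 h and 0 h arrays did not overlap for 6 of the 8 in Pokkali (67.2% of all loci) and for 8 of 8 in Nipponbare (68.9%), so separation of 2 arrays from 2 was common on these arrays. In Nipponbare the count of 6 calls was 3 without 8 h replicate II.

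NHX1 (LOC_Os07g47100), an antiporter of the vacuolar membrane, rose in both lines. Its relative signal was 15.6 and 19.6 in Pokkali at 8 h and 5.14 and 4.06 in Pokkali at 0 h. In Nipponbare it was 7.81 and 12.1 at 8 h and 3.48 and 3.21 at 0 h. Every 8 h value was above every 0 h value, and both Pokkali 8 h arrays were above both Nipponbare 8 h arrays. The rise was 3.82-fold in Pokkali (log2 1.93, SE 0.26, adjusted p = 0.0045) and 2.91-fold in Nipponbare (log2 1.54, SE 0.26, adjusted p = 0.00869). It passed in all 22 alternative analyses in each line, with a log2 change of at least 1.76 in Pokkali and at least 1.22 in Nipponbare.

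NHX3 (LOC_Os11g42790), a further vacuolar antiporter, changed most of the 8 in Nipponbare. Its signal was 7.05 and 9.04 in Pokkali at 8 h, against 3.13 and 2.42 in Pokkali at 0 h. Nipponbare had 16.2 and 19.0 at 8 h and 3.26 and 2.26 at 0 h. The lines overlapped at 0 h, and at 8 h both Nipponbare arrays lay above both Pokkali arrays. NHX3 rose 2.90-fold in Pokkali (log2 1.54, SE 0.25, adjusted p = 0.00825) and 6.47-fold in Nipponbare (log2 2.69, SE 0.25, adjusted p = 0.00189). The Pokkali call ended without Pokkali 8 h replicate II (adjusted p = 0.0555), and over its 22 alternatives the adjusted p ran from 0.00578 to 0.0555.

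NHX2 (LOC_Os05g05590), also vacuolar, passed in neither line alone. It had 5.60 and 6.32 in Pokkali at 8 h and 4.39 and 4.24 in Pokkali at 0 h, then 4.71 and 4.62 in Nipponbare at 8 h and 3.57 and 2.72 in Nipponbare at 0 h. The 8 h arrays lay above the 0 h arrays within each line. The change was 1.38-fold in Pokkali (95% interval of the log2 change 0.04 to 0.89, adjusted p = 0.0993) and 1.50-fold in Nipponbare (interval 0.16 to 1.01, adjusted p = 0.0549), and neither passed. Averaged over both lines NHX2 rose 1.44-fold (adjusted p = 0.017), a call that ended with no scaling between arrays (0.114), without Nipponbare 8 h replicate I (0.0555) or II (0.0554), without Pokkali 8 h replicate II (0.0594) and without replicate II of both lines at 0 h (0.0595), over a range of 0.0112 to 0.114.

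NHX4 (LOC_Os06g21360), counted among the vacuolar NHX antiporters, was the one gene of the 8 that fell. Its signal was 0.0289 and 0.0287 in Pokkali at 8 h and 0.0257 and 0.0288 in Pokkali at 0 h. In Nipponbare it was 0.0862 and 0.0802 at 8 h and 0.169 and 0.207 at 0 h. Pokkali arrays at the 2 times overlapped, and every Pokkali array was below every Nipponbare array. In Nipponbare NHX4 fell by 1.17 on the log2 scale, which was 2.25-fold (SE 0.16, adjusted p = 0.00499), and passed in all 22 alternatives. In Pokkali the log2 change was 0.08 (95% interval -0.31 to 0.47, adjusted p = 0.744). The Pokkali probe stood close to the lower end of what was measurable: the lowest signal well above background was between 0.0154 and 0.0186 on the Pokkali arrays at 0 h and between 0.0157 and 0.0175 at 8 h.

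NHX5 (LOC_Os09g11450) belongs to the NHX class of endosomal membranes rather than the vacuole. The mean of its 2 probes was 2.23 and 2.62 in Pokkali at 8 h, 2.02 and 1.77 in Pokkali at 0 h, 2.22 and 2.28 in Nipponbare at 8 h and 1.54 and 1.19 in Nipponbare at 0 h. Within each line the 8 h arrays were above the 0 h arrays. NHX5 rose 1.66-fold in Nipponbare (log2 0.73, SE 0.19, adjusted p = 0.0325), and the change of 1.28-fold in Pokkali did not pass (log2 0.36, 95% interval -0.09 to 0.81, adjusted p = 0.202). The Nipponbare call was less firm than those of NHX1 and NHX3: it ended in 8 of 22 alternatives, among them without Nipponbare 0 h replicate II (0.146), 8 h replicate I (0.114) and 8 h replicate II (0.148), without Pokkali 8 h replicate I (0.0506) or II (0.0506), and with no scaling between arrays (0.129).

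SOS1 (LOC_Os12g44360), the plasma membrane exporter, rose in both lines. As the mean of its 2 probes it had 1.58 and 1.74 in Pokkali at 8 h, against 0.732 and 0.786 in Pokkali at 0 h. Nipponbare had 1.37 and 1.68 at 8 h, against 0.764 and 0.696 at 0 h. In this mean no 8 h array overlapped a 0 h array, and the lines overlapped at both times. By probe the lines did not overlap at either time, and the 2 probes differed in opposite directions. Model 1 was lower in Pokkali (log2 -0.42 at 8 h and -0.32 at 0 h) and model 2 was higher (0.68 and 0.43). None of these differences passed. Over all loci 69% did not overlap between the lines at 8 h and 54.9% at 0 h. The rise was 2.19-fold in Pokkali (log2 1.13, SE 0.17, adjusted p = 0.00586) and 2.08-fold in Nipponbare (log2 1.06, SE 0.17, adjusted p = 0.00703). The Pokkali call ended with the brightest probe alone (log2 0.46, adjusted p = 0.0624, range 0.00368 to 0.0624) and the Nipponbare call without 8 h replicate II (0.0534, range 0.00469 to 0.0534).

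CIPK24 (LOC_Os06g40370), the kinase of the pathway, had 1.91 and 2.13 in Pokkali at 8 h, 1.33 and 0.878 in Pokkali at 0 h, 1.49 and 1.59 in Nipponbare at 8 h and 0.919 and 0.559 in Nipponbare at 0 h. The 8 h arrays were higher in each line, and replicate II was the lower of the 0 h arrays in both. It rose 2.15-fold in Nipponbare (log2 1.11, SE 0.30, adjusted p = 0.0386), and 1.86-fold in Pokkali did not pass (log2 0.90, 95% interval 0.18 to 1.62, adjusted p = 0.0693). Over both lines CIPK24 rose 2.00-fold (log2 1.00, SE 0.21, adjusted p = 0.0107), which held in 21 of 21 alternatives. The Nipponbare call ended in 9 of 22, among them without Nipponbare 0 h replicate II (0.154), 8 h replicate I (0.119) and 8 h replicate II (0.164) and without either Pokkali 8 h array (0.0674 each). In Pokkali it passed in 4 alternatives, among them without 0 h replicate I of Pokkali (0.0499) or without either 0 h replicate of Nipponbare (0.0432 each).

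CBL4 (LOC_Os05g45810), the calcium sensor that recruits the kinase, was set apart by its 0 h replicates. It had 0.512 and 0.729 in Pokkali at 8 h and 0.543 and 1.72 in Pokkali at 0 h, then 0.509 and 0.547 in Nipponbare at 8 h and 0.565 and 1.05 in Nipponbare at 0 h. Replicate II was 3.16-fold above replicate I at 0 h in Pokkali and 1.86-fold in Nipponbare. A gap of that size or more between the 0 h replicates was found at 2.43% of all loci in Pokkali and 10.2% in Nipponbare. The log2 change was -0.66 in Pokkali (95% interval -2.02 to 0.70, adjusted p = 0.424) and -0.55 in Nipponbare (interval -1.91 to 0.81, adjusted p = 0.512), and neither passed. With replicate I of both lines at 0 h left out, CBL4 fell in Pokkali by 1.49 on the log2 scale (adjusted p = 0.0212, range 0.0212 to 0.81). With replicate II of both left out, its Pokkali log2 change was 0.17.

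**Figure D2:**
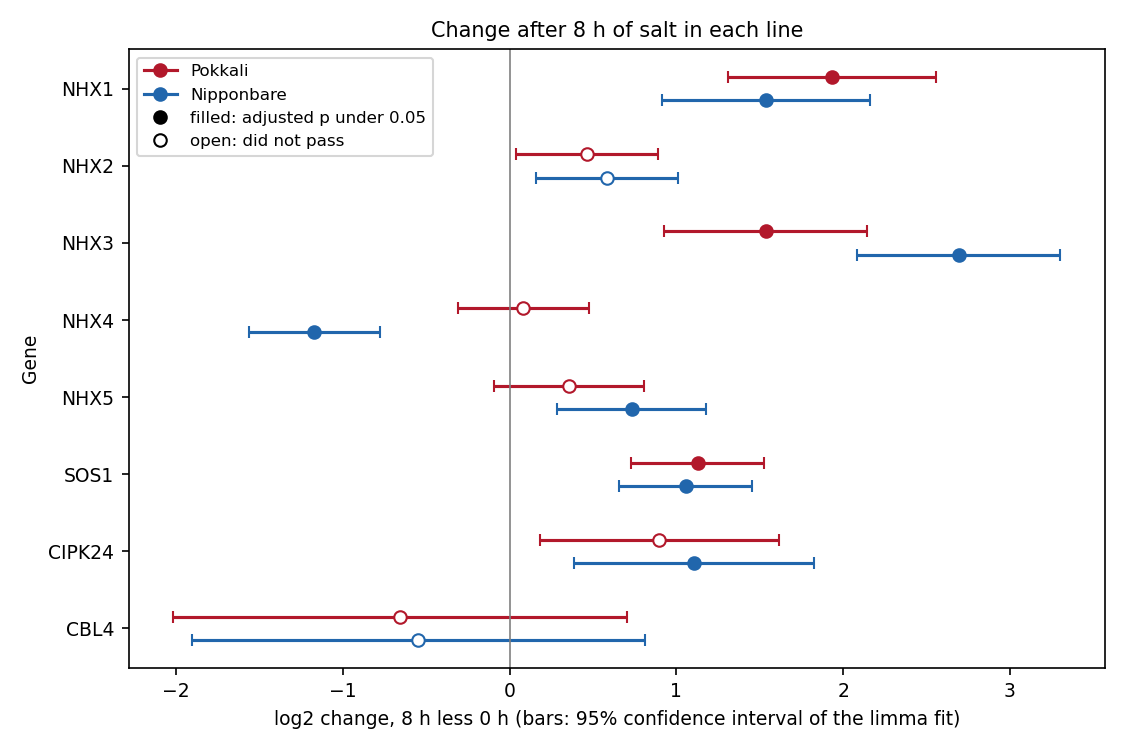
Log2 change of each of the 8 genes after 8 h of salt in Pokkali and Nipponbare (horizontal axis), with the 95% confidence interval of the limma fit as bars and filled points for an adjusted p under 0.05. NHX1, NHX3 and SOS1 were filled in both lines, NHX4 lay below 0 with an interval clear of 0 in Nipponbare, and the intervals of CBL4 were the widest of the 8.

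The salt response itself was then compared between the lines, as the Pokkali change less the Nipponbare change. For 0 of the 8 genes did this difference pass in limma, against 0.351% of all loci, and 2 of the 8 had an unadjusted p under 0.05, against 10.4% of all loci. Those 2 were NHX3 and NHX4. The difference for NHX3 was -1.16 log2 units (SE 0.36, 95% interval -2.02 to -0.29, unadjusted p = 0.0164, adjusted p = 0.307), and for NHX4 it was 1.25 (SE 0.23, interval 0.70 to 1.81, unadjusted p = 0.00132, adjusted p = 0.119). The adjusted p did not go under 0.229 for NHX3 or 0.111 for NHX4 in any of 21 alternatives. With normexp background correction the NHX4 difference was 0.645 (adjusted p = 0.316). That correction also added an offset, which by itself shrinks log2 differences of dim probes. NHX4 had a signal of 0.0257 to 0.0289 on the Pokkali arrays, whose lowest signals well above background were 0.0154 to 0.0186. A fall there of the size seen in Nipponbare could thus have gone below what was measurable. For SOS1 the difference was 0.07 (interval -0.49 to 0.64) and for NHX1 it was 0.40 (interval -0.48 to 1.28). The widest interval was that of CBL4, from -2.03 to 1.81, so it still held differences of over 2-fold in either direction.

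Levels were also compared between the lines at each time. At 8 h, 2 of the 8 were lower in Pokkali than in Nipponbare (11.5% of all loci) and 0 were higher in limma (10.5%), with 22% of loci called in all. At an unadjusted p under 0.05, 1 was higher and 2 were lower, where 35.5% of all loci passed in either direction. NHX3 was lower in Pokkali (log2 difference -1.14, SE 0.25, adjusted p = 0.0232) and NHX4 was 2.89-fold lower (log2 -1.53, SE 0.16, adjusted p = 0.00135). NHX1 was 1.80-fold higher in Pokkali without passing (log2 0.85, 95% interval 0.22 to 1.47, adjusted p = 0.0632), and passed in 4 of 22 alternatives, among them without Nipponbare 8 h replicate II (0.049) and with quantile normalization (0.0473). The NHX3 call ended without Nipponbare 8 h replicate I (0.0766) or II (0.123) and without Pokkali 8 h replicate I (0.118) or II (0.0587), over a range of 0.0156 to 0.123. The groups did not overlap at 8 h for 5 of the 8 genes, against 69% of all loci. The count of 2 calls was 1 without Nipponbare 8 h replicate I, Pokkali 8 h replicate I or Pokkali 8 h replicate II.

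At 0 h NHX4 was the 1 gene of the 8 that passed between the lines, and it was lower in Pokkali (10.1% of all loci were lower and 6.73% higher, 16.8% in all). The difference was 6.88-fold (log2 -2.78, SE 0.16, adjusted p = 0.000123) and passed in all 22 alternatives. Its size depended on the processing, since with normexp it was -1.08 at 0 h (adjusted p = 0.00329) and -0.43 at 8 h, where the call ended (adjusted p = 0.0734, range 0.000924 to 0.0734). Normexp here also added an offset of 50 to each signal, which by itself shrinks log2 differences of dim probes. NHX4 had 19.3 to 22.0 intensity units in Pokkali and 59.8 to 178 in Nipponbare. The part of the offset was not tested. The Nipponbare salt change of NHX4 was -0.65 under that correction (adjusted p = 0.0163). NHX3, which differed at 8 h, had a log2 difference of 0.02 at 0 h (95% interval -0.59 to 0.63). Groups did not overlap at 0 h for 4 of the 8, against 54.9% of all loci. By probe, model 2 of NHX5 was also called at 0 h, as higher in Pokkali (log2 0.82, SE 0.19, adjusted p over all probes = 0.0318). Model 1 of NHX5 did not pass (log2 0.14, adjusted p = 0.693), nor did the mean of both probes (0.146). With no scaling between arrays, 1 probe was called at 0 h. The probes were designed on a Nipponbare genome sequence, per the file headers, so a lower level in Pokkali and a sequence difference under the probe cannot be told apart.

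**Figure D3:**
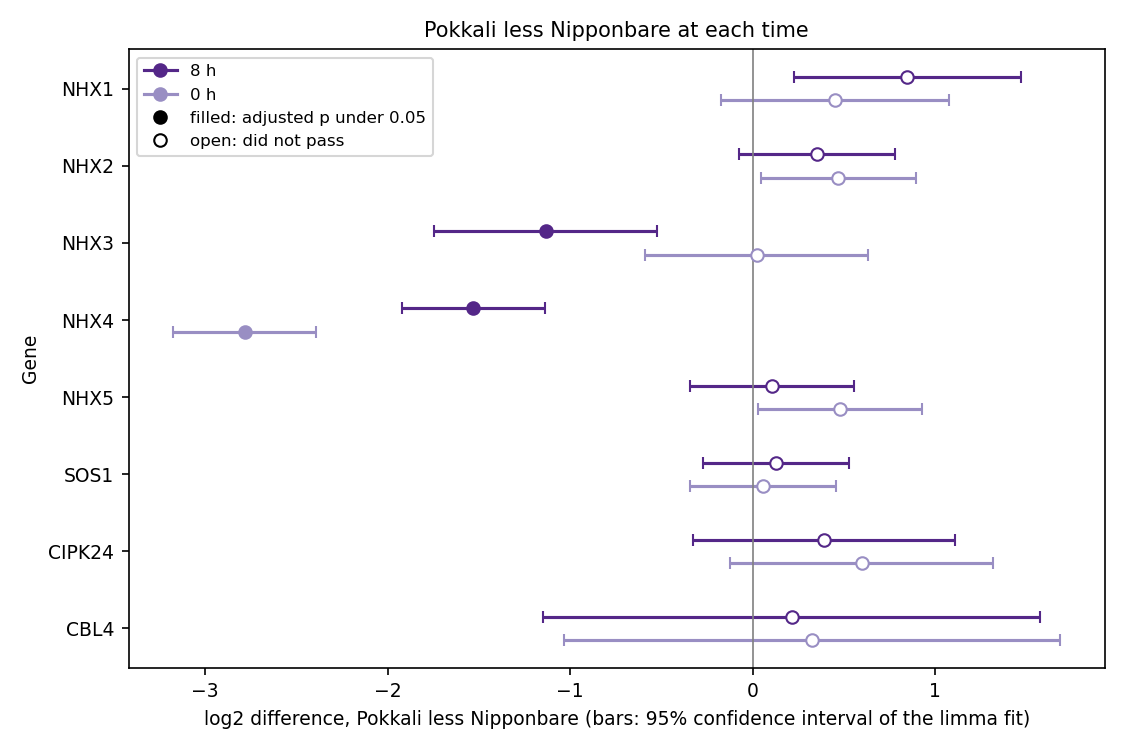
Log2 difference of Pokkali less Nipponbare for each of the 8 genes at 8 h and at 0 h (horizontal axis), with the 95% confidence interval of the limma fit as bars and filled points for an adjusted p under 0.05. NHX4 lay far below 0 at both times, at -1.53 at 8 h and -2.78 at 0 h, and NHX3 lay below 0 at 8 h only, where it was at -1.14.

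The probes of the 2 transcript models of SOS1 did not move alike, a comparison chosen after their values were seen. The model 2 probe had 0.489 and 0.518 in Pokkali at 8 h, 0.136 and 0.155 in Pokkali at 0 h, 0.268 and 0.370 in Nipponbare at 8 h and 0.120 and 0.0963 in Nipponbare at 0 h. The model 1 probe had 5.08 and 5.87 in Pokkali at 8 h, 3.95 and 3.99 in Pokkali at 0 h, 7.01 and 7.61 in Nipponbare at 8 h and 4.85 and 5.03 in Nipponbare at 0 h. Both probes were higher on all 8 h arrays than on the 0 h arrays of their line. Model 2 rose 3.47-fold in Pokkali (adjusted p over all 47474 probes = 0.00334) and 2.93-fold in Nipponbare (0.00475). Model 1 rose 1.48-fold in Nipponbare (adjusted p = 0.0348), and 1.38-fold in Pokkali did not pass (0.0625). The Nipponbare call of model 1 ended in 9 of 21 alternatives, among them without any 1 Nipponbare array (0.101 to 0.18), with quantile normalization (0.0737) and with no scaling (0.137). The Pokkali change of model 1 passed in 3 of 21, which were normexp (0.0325), an intensity trend in the spread (0.0465) and the replicate block (0.0481). Over the 10 probes, 3 rose in Pokkali (15.1% of all probes), and 7 rose (14.1%) and 1 fell (12.4%) in Nipponbare.

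The gap between the models, model 2 less model 1 on the log2 scale on the same array, was tested over the 2137 loci with both probes. For SOS1 the gap was -3.38 and -3.50 in Pokkali at 8 h, -4.86 and -4.69 in Pokkali at 0 h, -4.71 and -4.36 in Nipponbare at 8 h and -5.33 and -5.71 in Nipponbare at 0 h. Its absolute size says nothing about which transcript was more abundant, and only its change is used. Which transcripts the 2 probes bind was not checked, since no sequences were used. The model 2 probe was dimmer, at 82.7 to 354 intensity units, against 3045 to 5677 for model 1. The part of brightness in the change of the gap was not tested. Over both lines the gap of SOS1 rose by 1.16 log2 units after salt (SE 0.12, adjusted p = 0.00688, against 8.7% of these loci called in either direction), in 20 of 20 alternatives, with a change between 0.77 and 1.25. Within a line the change was 1.34 in Pokkali (adjusted p = 0.0185, 4.68% of loci called) and 0.98 in Nipponbare (adjusted p = 0.0495, 3.88% called). These calls ended in 7 of 21 alternatives in Pokkali and in 16 of 21 in Nipponbare. Without Pokkali 0 h replicate I or II and 8 h replicate I or II, the Pokkali adjusted p was 0.0664, 0.0678, 0.0986 and 0.0951. In Nipponbare, leaving out any 1 of the 8 arrays ended the call (0.0725 to 0.212).

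For NHX5 the gap differed between the lines, and its salt change passed in neither. Its model 2 less model 1 gap was -1.77 and -1.75 in Pokkali at 8 h, -1.64 and -1.77 in Pokkali at 0 h, -2.49 and -2.44 in Nipponbare at 8 h and -2.41 and -2.36 in Nipponbare at 0 h. All 4 Pokkali arrays lay above all 4 Nipponbare arrays. The gap was higher in Pokkali by 0.70 log2 units at 8 h (SE 0.06, adjusted p = 0.00321, 7.02% of loci called) and by 0.68 at 0 h (adjusted p = 0.00361, 5.76% called). The 0 h call ended without replicate I of both lines at 0 h (0.0644) and with only the 0 h arrays in the fit (0.0645). The salt change of the gap was -0.06 in Pokkali (adjusted p = 0.776) and -0.08 in Nipponbare (adjusted p = 0.664). The SOS1 gap was also higher in Pokkali at 8 h, by 1.096 (adjusted p = 0.0225), and this call ended without any 1 of the 4 arrays at 8 h (0.0569 to 0.119). A sequence difference under a probe and a different share of transcripts cannot be told apart for either gene.

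**Figure D4:**
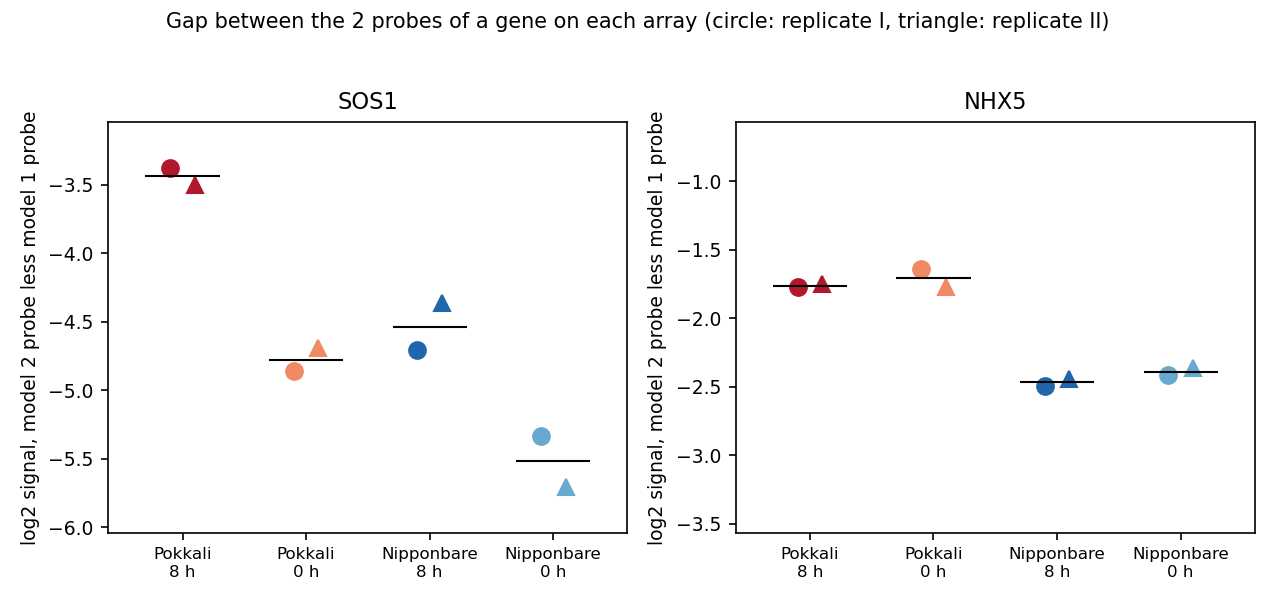
Log2 signal of the model 2 probe less the model 1 probe (vertical axis) of SOS1 and NHX5 on each array, in Pokkali at 8 h, Pokkali at 0 h, Nipponbare at 8 h and Nipponbare at 0 h, with group means as lines. For SOS1 the 8 h arrays lay above the 0 h arrays in each line, and for NHX5 the Pokkali arrays lay above the Nipponbare arrays at both times.

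Among the 9 other CBL calcium sensors, 1 rose and 1 fell in Pokkali (15.1% and 12% of all loci), and 2 rose and 1 fell in Nipponbare (14% and 12.3%). The median log2 change of these 9 was 0.31 in Pokkali and -0.01 in Nipponbare, against 0.07 and 0.05 over all loci. The 2 calls in Pokkali were 1 without Pokkali 0 h replicate II or any 1 of the 4 arrays at 8 h, and 4 without replicate I of both lines at 0 h. The 3 in Nipponbare were 1 without Nipponbare 0 h or 8 h replicate II, and 5 without Nipponbare 0 h replicate I or without either replicate number of both lines at 0 h. CBL10 (LOC_Os01g51420), which in Arabidopsis works with SOS2 in shoots, rose 4.45-fold in Pokkali (adjusted p = 0.00194) and 3.07-fold in Nipponbare (adjusted p = 0.00355). It was higher in Pokkali than in Nipponbare, 8.33-fold at 8 h (adjusted p = 0.000177) and 5.74-fold at 0 h (adjusted p = 0.000409), and these 4 calls held in all 22 alternatives. CBL3 (LOC_Os03g42840) rose 2.46-fold in Nipponbare (adjusted p = 0.0385), and not without Nipponbare 0 h replicate II, 8 h replicate I or 8 h replicate II or either Pokkali 8 h array (0.0688 to 0.179). CBL7 (LOC_Os02g18880) fell by 0.87 log2 units in Pokkali (adjusted p = 0.0362) and by 1.14 in Nipponbare (adjusted p = 0.0158). Its Pokkali call ended without Pokkali 0 h replicate II or any 1 of the 4 arrays at 8 h (0.0575 to 0.13), and its Nipponbare call without Nipponbare 0 h or 8 h replicate II (0.0794 and 0.0996). CBL5 (LOC_Os01g41510) was lower in Pokkali at 8 h (log2 -2.19, adjusted p = 0.0101, and 0.0559 to 0.0635 without Nipponbare 8 h replicate II or either Pokkali 8 h array) and at 0 h (log2 -3.57, adjusted p = 0.0016), and CBL9 (LOC_Os01g39770) was lower at 8 h (log2 -2.14, adjusted p = 0.0271), though not without any 1 of the 4 arrays at 8 h (0.104 to 0.119). Over both lines CBL3, CBL9 and CBL10 rose (23.7% of all loci) and CBL7 and CBL8 fell (19%). CBL9 (log2 1.09, adjusted p = 0.0477) missed in 8 of 21 alternatives, among them without any 1 array at 8 h (0.098 to 0.126) or replicate II at 0 h of Pokkali (0.123) or Nipponbare (0.0501). CBL8 (LOC_Os02g18930, log2 -1.23, adjusted p = 0.0189) was kept through the 0 h groups. At 8 h it was well above background on 1 Pokkali array and not in Nipponbare, so the size of its fall is uncertain. In Nipponbare its 0 h mean was 1.26-fold of the lowest signals well above background at 8 h. The Nipponbare change did not pass in limma (adjusted p = 0.0787), so no smallest size of a fall is stated there. The call over both lines missed in 6 of 20 alternatives, among them with normexp (0.184) and without replicate II at 0 h of Pokkali or Nipponbare or either Pokkali 8 h array.

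Proteins of the 14-3-3 family bind phosphorylated partners, and in Arabidopsis some of them hold SOS2 inactive. Of the 7 measured on the array, 4 rose and 1 fell in each line, where 15.1% of all loci rose and 12% fell in Pokkali and 14% rose and 12.3% fell in Nipponbare. The median log2 change of the 7 was 0.80 in Pokkali and 0.68 in Nipponbare, against 0.07 and 0.05 over all loci. The 4 were GF14a (log2 0.80 in Pokkali and 0.68 in Nipponbare), GF14d (0.96 and 1.00), GF14f (0.83 and 0.69) and GF14h, and the one that fell was GF14e (-0.77 and -0.76). GF14h (LOC_Os11g39540) rose 2.84-fold in Pokkali (adjusted p = 0.00294) and 2.58-fold in Nipponbare (adjusted p = 0.00353). Between the lines GF14h was 5.29-fold higher in Pokkali at 8 h (adjusted p = 0.000235) and 4.81-fold higher at 0 h (adjusted p = 0.000317). GF14d (LOC_Os11g34450) was also higher in Pokkali, 1.68-fold at 8 h (adjusted p = 0.0352) and 1.72-fold at 0 h (adjusted p = 0.0362), and each call ended when any 1 Nipponbare array or either Pokkali array of that time was left out (0.0536 to 0.18). The 0 h call also ended without either Pokkali 8 h array (0.0502 each). The GF14h calls held in all 22 alternatives. Of the 5 calls within each line, 1 remained in Pokkali without 0 h or 8 h replicate II and 2 without 8 h replicate I. In Nipponbare 1 remained without 0 h or 8 h replicate II and 2 without 8 h replicate I, and GF14e also missed without 0 h replicate I (0.0592) and GF14a without either Pokkali 8 h array (0.0617).

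Of the proton pumps, OSA1 (LOC_Os03g48310), a plasma membrane proton ATPase, rose 4.82-fold in Pokkali (adjusted p = 0.00348) and 4.24-fold in Nipponbare (adjusted p = 0.00416). OSA1 passed in all 22 alternatives in each line. OSA3 (LOC_Os12g44150) fell by 0.64 log2 units in Pokkali (adjusted p = 0.039) and by 0.66 in Nipponbare (adjusted p = 0.0358), and each call ended when any 1 array of its own line (0.0523 to 0.158) or either 8 h array of the other line (0.0688 for the Pokkali change and 0.0584 for the Nipponbare change) was left out. The other 6 of 8 measured ATPases did not pass in either line. Of the 8, 1 rose and 1 fell in each line. Over all loci 15.1% rose and 12% fell in Pokkali (27.1% in all), and 14% rose and 12.3% fell in Nipponbare (26.3%). Calls were thus about as common in this list as over all loci. The median log2 change of the 8 was 0.02 in Pokkali and 0.15 in Nipponbare, against 0.07 and 0.05 over all loci. OSA8 (LOC_Os03g01120), not well above background in Nipponbare at 8 h, was at least 2.00-fold higher in Pokkali at that time (adjusted p = 0.0142). That bound sets the Pokkali mean against the mean, on the log2 scale, of the lowest signals well above background on the Nipponbare 8 h arrays, which were 0.0149 and 0.0206, so it is a bound on group means and not for each array. The call ended with normexp (log2 0.50, adjusted p = 0.0519), a difference below that bound, which the offset of 50 added there also shrinks. It ended too without Nipponbare 8 h replicate II and without Pokkali 8 h replicate II. At 0 h OSA8 was also called higher in Pokkali (log2 2.30, adjusted p = 0.0128). Only 1 Nipponbare array was well above background then, and the probe was kept through Pokkali, so the size of that difference is uncertain. The call ended without replicate I at 0 h of Pokkali or Nipponbare or either replicate number of both lines. Over both lines OSA8 was called lower (log2 -0.90, adjusted p = 0.0483). In Nipponbare its 0 h mean was 0.80-fold of those lowest signals at 8 h, so no fall can be stated there. The call ended in 12 of 20 alternatives, among them with normexp (0.363), with the replicate block (0.0651) and without any 1 of 6 of the 8 arrays. OSA5 (LOC_Os08g14360) was lower in Pokkali, with a log2 difference of -0.55 at 8 h (adjusted p = 0.0335) and -0.64 at 0 h (adjusted p = 0.0235). Each call ended when any 1 Nipponbare array (0.0529 to 0.158) or either Pokkali array of that time (0.0646 to 0.14) was left out, and with normexp background correction (0.0694 at 8 h and 0.0549 at 0 h). Over both lines OSA5 fell (log2 -0.41, adjusted p = 0.0162), though not without either Nipponbare 8 h array (0.059 and 0.0533), Pokkali 8 h replicate I (0.0518) or replicate I of both lines at 0 h (0.0583). Among the 3 vacuolar proton pyrophosphatases, OVP2 (LOC_Os06g08080) fell by 0.73 log2 units in Nipponbare (adjusted p = 0.0211), and not without Nipponbare 0 h replicate II (0.1), 8 h replicate I (0.0636) or 8 h replicate II (0.129). OVP2 was the 1 of the 3 that passed in Nipponbare (26.3% of all loci). In Pokkali 0 of the 3 passed in limma (27.1% of all loci) and 2 had an unadjusted p under 0.05 (40.6%). There 2 passed with normexp, and 1 with quantile normalization, no scaling, probes bright on all arrays, an intensity trend in the spread or without Pokkali 0 h replicate I. OVP1 (LOC_Os06g43660) had a log2 change of 1.05 in Pokkali (adjusted p = 0.0521) and 0.91 in Nipponbare (adjusted p = 0.0786). Over both lines OVP1 rose (log2 0.98, adjusted p = 0.0142), though not without 8 h replicate II of Pokkali (0.0508) or of Nipponbare (0.0526).

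**Figure D5:**
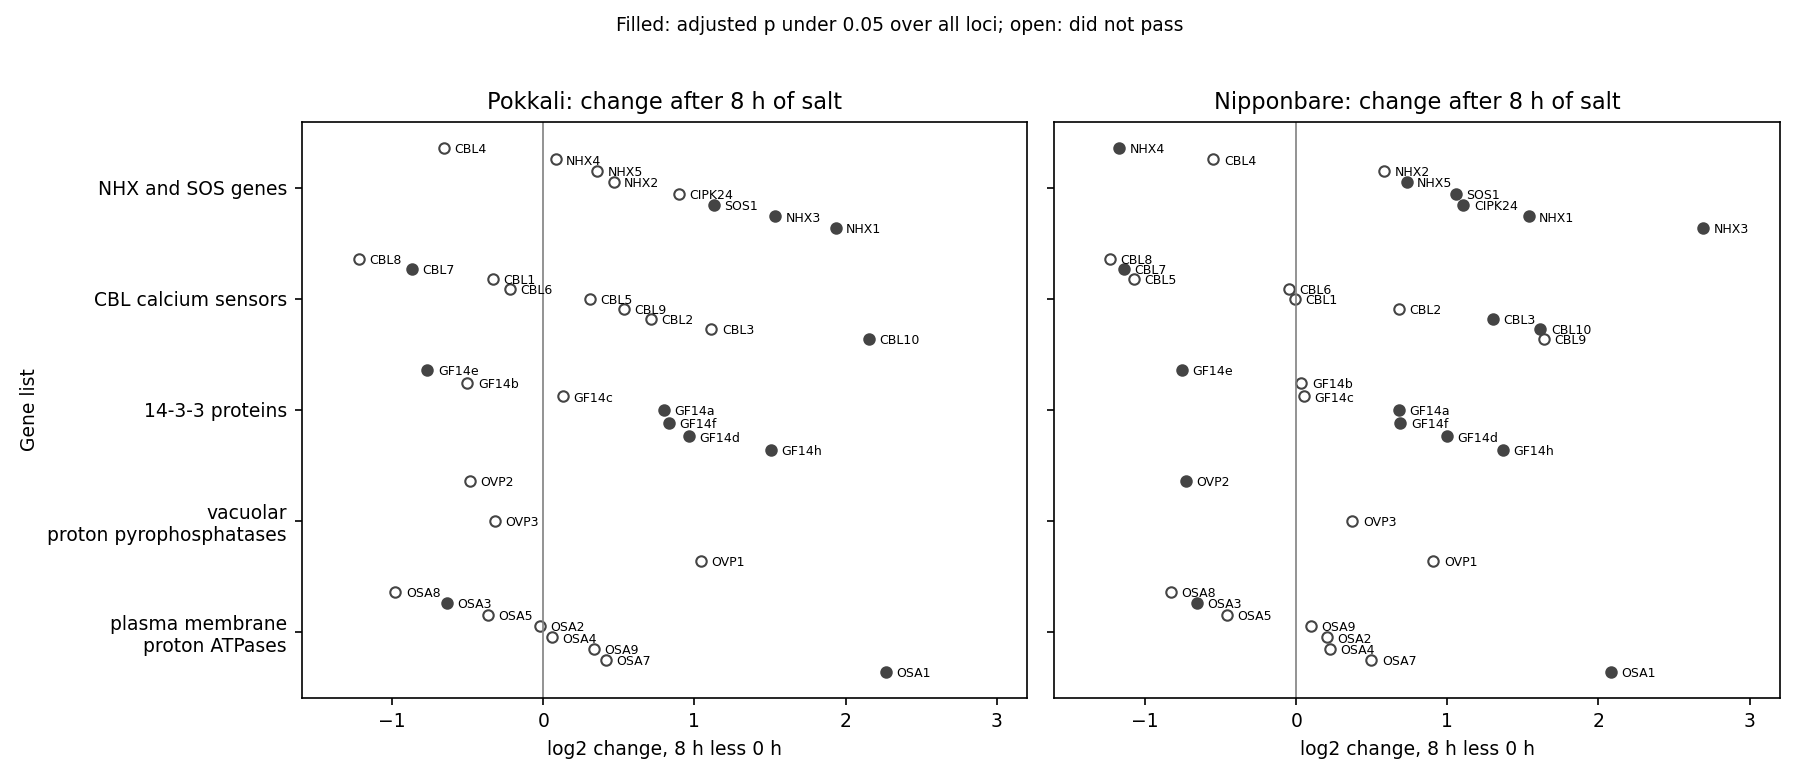
Log2 change after 8 h of salt (horizontal axis) of each measured gene of the 8 NHX and SOS genes, the other CBL calcium sensors, the 14-3-3 proteins and the proton pumps, in Pokkali on the left and Nipponbare on the right, filled where the adjusted p was under 0.05. CBL10, GF14h and OSA1 were the highest filled points of their lists in both lines, with OSA1 at 2.27 in Pokkali and 2.08 in Nipponbare.

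Across the 8 arrays the 8 genes did not follow a single pattern. As a description over arrays that share 4 groups, the member closest to SOS1 was NHX1 (Pearson r = 0.951 of the log2 values), and the closest to NHX5 was CIPK24 (r = 0.970). NHX4 had no positive r with any of the other members, the highest being -0.06 with CBL4 and the lowest -0.76 with NHX2. Of 38599 other loci, the one most like SOS1 was LOC_Os07g46810 (r = 0.999), which rose in both lines, and the one most like NHX4 was LOC_Os02g19990 (r = 0.996), with a log2 change of -2.18 in Nipponbare and 0.29 in Pokkali.

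Markers of root and leaf moved with salt as well. All 6 root markers were kept and none was listed at 0, and their summed relative signal was 1.51 to 1.71 in Pokkali at 8 h, 10.5 to 14.7 in Pokkali at 0 h, 0.951 to 0.990 in Nipponbare at 8 h and 10.1 to 20.5 in Nipponbare at 0 h. The sum weights genes by probe brightness, and RCC3 made up 58.3% to 66.2% of it in Pokkali at 8 h, 75.5% to 90.5% in Pokkali at 0 h, 47.1% to 56.3% in Nipponbare at 8 h and 84.4% to 94.1% in Nipponbare at 0 h. RCC3 and LSI1 fell in each line, IRT1 and NRT2.2 were also called lower in each, and LSI2 and NRT2.1 passed in neither. Over all loci 12% were called lower in Pokkali and 12.3% in Nipponbare. The root iron transporter IRT1 was well above background on both arrays only in Pokkali at 0 h, through which it was kept. On every 8 h array IRT1 was not well above background, so the size of its fall was not measured. NRT2.1 was not well above background on any Nipponbare array and NRT2.2 on any Pokkali array. The Pokkali call of NRT2.2 thus lay between levels that were not measurable, and no fall is read from it. All 7 leaf markers were kept, and their sum was 316 to 389 in Pokkali at 8 h, 771 to 897 in Pokkali at 0 h, 346 to 435 in Nipponbare at 8 h and 781 to 862 in Nipponbare at 0 h. Of the 7, 5 fell in Pokkali (12% of all loci) and 7 in Nipponbare (12.3%). The part of these shifts in the changes of the 8 genes was not tested, and in whole seedlings fewer cells of a type and less RNA per cell cannot be told apart.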

How the data were processed

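Cy3-labelled RNA from 8 samples was hybridised to a custom Agilent array on 1 slide with 1 scan. Each line had a slide row and each time its columns, so position and group cannot be told apart. The deposited intensity values were the processed signal of Feature Extraction 10.7.1.1, per the file headers, and equalled the authors' series table in 100% of values within a relative tolerance of 0.001. The intensities were taken to log2 and each array's 75th percentile was subtracted. Control spots and outlier flags were left out, and a probe was kept where some group had it well above background on each of its arrays. Probes of a locus were averaged. limma 3.58.1 in R 4.3.3 fitted the 4 groups together over 45335 loci (4 residual degrees of freedom) and was tested on simulated data.

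The genes and lists were chosen with earlier results of these data known. All 8 genes are named, as is every gene of the CBL, 14-3-3 and proton pump lists that passed in a salt change or between the lines. Root and leaf markers are given by their sums and counts. Gene names rest on locus identifiers and general knowledge: 0 of the 8 identifiers and 2 of the names were found in the annotation table used here, and no sequences were used. The normexp alternative used median signals, since the files hold no mean signal, and added an offset of 50. One array labelled replicate II in its title is called replicate 1 in its description, and the title was used. With 2 arrays a group, the number of arrays limits precision, and p-values cover the spread between these samples.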

Additional observations from a re-analysis of the deposited data

How the results depend on the processing

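Up to 22 alternatives were run for each result. The salt changes of NHX1 in both lines and of NHX3 and NHX4 in Nipponbare, and NHX4 between the lines at 0 h, passed in all of theirs. Leaving out 1 array gave 3 to 7 of the 8 genes called in Nipponbare, 2 to 4 in Pokkali, 5 to 8 over both lines, 1 to 2 between the lines at 8 h and 1 at 0 h, and 0 for the difference of the salt change. Over all loci these ranges were 4017 to 12228 (Nipponbare), 4759 to 11987 (Pokkali), 13571 to 18616 (both), 5026 to 9975 (lines at 8 h), 5299 to 6464 (at 0 h) and 0 to 175 (difference). By probe they were 4 to 8, 2 to 4, 6 to 10, 1 to 2 and 1 to 2. Without replicate 1 of both lines at 0 h, the calls in Pokkali were 5 by gene and 5 by probe, the 0 h line difference had 1 by probe and the difference 25 over all loci. Without replicate 2 of both, these were 4 by probe in Nipponbare, 1 by probe for the 0 h line difference, 4921 loci there and 1 for the difference. For the other settings the cause was not tested. The 159 loci whose salt change differed became 52 with no filter, 50 with each probe bright on every array and 30 with the replicate block. The 7634 loci at 0 h became 4168 with only those arrays, where fewer samples entered. By probe, 8 calls in Nipponbare became 4, and 2 at 0 h became 1, with no scaling and again with only the arrays compared, and 2 at 8 h became 4 with normexp. Of the list genes, further calls ended with no scaling (CBL3 in Nipponbare, adjusted p = 0.0774, GF14a in Pokkali, 0.0613, and in Nipponbare, 0.144, GF14f in Nipponbare, 0.119, and GF14d between the lines, 0.0627 at 8 h and 0.085 at 0 h) and with quantile normalization (CBL3, 0.0623, and GF14f, 0.089, in Nipponbare, and OSA3 in Pokkali, 0.05005).

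With no scaling between arrays the median log2 change of all loci was -0.07 in Pokkali and -0.17 in Nipponbare. Falls made up 57.5% of calls in Pokkali and 66.7% in Nipponbare then, against 44.3% and 46.8% with scaling. Lower levels in Pokkali made up 65.0% of calls at 8 h and 75.9% at 0 h, against 52.3% and 60.1%.

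Some values that did not pass in the results above changed sign. Among them the CBL4 salt change, in Pokkali and over both lines, passed in some alternatives that left 1 array in a 0 h group. In Pokkali the NHX4 salt change was -0.00134 with normexp, -0.0717 with quantile normalization, -0.0665 with no scaling, and -0.00175 to 0.164 without 1 array (-0.00175 without replicate 1 of both lines at 0 h). The 0 h line difference of NHX3 was -0.0307, -0.022 and -0.199 under those 3 settings, -0.244 to 0.288 without 1 array and -0.0569 without replicate 2 of both. For SOS1 it was -0.164 with no scaling, -0.315 with the brightest probe, -0.0102 to 0.124 without 1 array and -0.0616 without replicate 2 of both. At 8 h it was -0.0241 with no scaling, -0.42 with the brightest probe and -0.0168 to 0.274 without 1 array, and for NHX5 it was -0.0492, -0.249 and -0.0131 to 0.22. For CBL4 it was -0.0421 to 0.467 at 8 h and -0.506 to 1.15 at 0 h without 1 array, and -0.0561 at 0 h without replicate 2 of both. The salt change of CBL4 was -1.49 to 0.171 in Pokkali without 1 array, and without replicate 2 of both it was 0.171 there and 0.0362 over both lines. The difference of salt changes was -0.105 with the brightest probe, -0.0739 to 0.217 without 1 array and -0.0473 without replicate 1 of both for SOS1. It was -0.31 to 0.0775 for NHX2, -0.567 to 0.151 for CIPK24 and -0.941 to 0.718 for CBL4 without 1 array, and 0.0526 for NHX2 and 0.269 for CBL4 without replicate 2 of both. The salt change of the NHX5 gap was 0.0126 in Nipponbare with quantile normalization, and in Pokkali -0.121 to 0.00779 without 1 array and 0.00779 without replicate 1 of both. The SOS1 gap between 0 h replicates in Nipponbare was 0.0514 with the brightest probe.

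The labelled replicate numbers were not treated as pairs: replicate II less I correlated over loci at 0.0779 between the 2 times in Pokkali, 0.113 in Nipponbare, 0.218 between the lines at 8 h and 0.536 at 0 h. A replicate block left 3, 6, 7, 2 and 1 of the 8 genes called in Pokkali, Nipponbare, both lines, and the lines at 8 h and 0 h, and 0 for the difference, which are the counts without it. The block fitted 1 replicate term shared by all groups. A shift between replicates at 0 h alone could not be taken out in full by it, so these counts do not cover such a shift.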
